A study of Mus musculus with 42 samples.

Results

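Fos, Jun, Egr1, Ccn1 (formerly Cyr61) and Hspa1a, 5 genes of the immediate early and stress responses, were followed across 21 mouse mammary tumours. Their probes were found by gene symbol in the platform annotation. Each gene had 1 probe, so the set holds 5 of 22800 probes and 5 of the 7629 genes with a probe that could be tested. The tumours descended from neoplasms of FVB/N-Tg(WapMyc)212Bri mice, which carry c-Myc under the Wap promoter, a promoter that is active in secretory mammary epithelium. In vivo selection gave a glandular line, a solid/comedo line without lung metastases, a solid/comedo line with them and a spindloid (mesenchymal) line, but the labels do not give the line, age or sex for a numbered tumour. All tumours share the transgene, and no normal mammary gland or untreated control was among the samples analysed here. Each tumour's RNA was set against RNA of a universal mouse reference on 2 two-colour arrays with the dyes exchanged, 42 arrays in all, so comparisons were made between tumours and not between lines.

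Immediate early genes are transcribed within minutes of a growth factor or stress signal, from transcription factors already present in the cell, such as SRF with its ETS partners and CREB. Fos and Jun proteins pair to form AP-1, Egr1 is a zinc finger transcription factor, and Ccn1 is a secreted matrix-associated protein whose gene also responds to YAP. Hspa1a encodes the inducible Hsp70 chaperone, which is driven by HSF1 when proteins misfold.

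Regulation of these genes is known to run through their proximal promoters, so the 150 bases before the annotated start are printed for the 4 members with an entry in the RefSeq table (GRCm38.p6). Capitals mark the motifs found: TGACGT (cyclic AMP response element core, in Ccn1 read as ACGTCA on the other strand), TGACATCA (proximal Jun site), GAANNTTC (heat shock element dyad) and TATAAA (the core promoter box of that name). The windows are chr12:85473740-85473889 on the plus strand for Fos, and, on the minus strand, chr4:95052223-95052372 for Jun, chr3:145649986-145650135 for Ccn1 and chr17:34972157-34972306 for Hspa1a.
Fos: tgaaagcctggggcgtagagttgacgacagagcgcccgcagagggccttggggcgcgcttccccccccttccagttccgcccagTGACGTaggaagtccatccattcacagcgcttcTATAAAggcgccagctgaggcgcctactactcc
Jun: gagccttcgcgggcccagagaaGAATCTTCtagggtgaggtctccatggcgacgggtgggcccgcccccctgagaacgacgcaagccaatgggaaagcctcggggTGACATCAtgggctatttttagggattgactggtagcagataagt
Ccn1: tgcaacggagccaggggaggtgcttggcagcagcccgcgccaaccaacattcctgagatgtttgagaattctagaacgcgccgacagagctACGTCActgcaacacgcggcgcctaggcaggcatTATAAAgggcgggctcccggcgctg
Hspa1a: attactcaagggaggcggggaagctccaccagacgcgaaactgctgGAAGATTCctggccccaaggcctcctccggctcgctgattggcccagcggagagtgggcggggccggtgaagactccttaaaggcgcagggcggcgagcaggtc

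The cyclic AMP element core lay at -66 to -61 in Fos and -59 to -54 in Ccn1, counted from the start. It was present in 7.51% of 32851 promoter windows of 300 bases (250 before and 50 after the start), searched on both strands. A TATA box lay at -33 to -28 in Fos and -25 to -20 in Ccn1, and 13.6% of windows held one. The Jun site lay at -45 to -38 (3.62% of windows). A heat shock dyad lay at -104 to -97 in Hspa1a and at -128 to -121 in Jun (7.86% of windows). No CArG box, the site of SRF (1.63% of windows), and no TGANTCA, the AP-1 site (7.81%), was found in the 4 windows, which says only that these letters are not there. Hspa1b, the near-identical neighbour of Hspa1a, differs from it at 4 of these 300 promoter bases (98.7% identity), and no probe was annotated to it. Probe and transcript sequences were not compared, so whether the Hspa1a probe also reports Hspa1b was not tested.

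All values below are log2 ratios of tumour to reference RNA after subtraction of the median of each array, with 0 standing for the array's median probe. The deposited ratios were turned so that the dye-swapped arrays of a tumour run the same way. The remaining choice of sign gave Myc a positive median, and it cannot be settled from the labels: all signs could turn together, while differences in size, tests and correlations would stay. With this sign Krt8, a keratin of luminal epithelium, was above 0 in 21 of 21 tumours and the milk gene Csn2 in 15, whereas Vim, a mesenchymal filament gene, was below 0 in 16. In tumour tissue, fewer cells of a type and less RNA per cell cannot be told apart. Arrays had 8600 to 21328 measured probes. Tumour 656 stands apart, since its arrays correlated at 0.074 before turning, where the other 20 pairs were below 0, and it has no value for Fos or Hspa1a.

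Fos, Jun, Egr1 and Ccn1 lay below the array median in nearly every tumour, and Hspa1a above it in most. Fos was below 0 in 20 of 20 tumours and 37 of 37 arrays. Egr1 was below 0 in 21 of 21 tumours and 39 of 40 arrays, and Ccn1 in 21 of 21 tumours and 40 of 42 arrays. Of all probes tested, 3.28% were below 0 in every tumour and 1.66% above 0 in every tumour. Jun was below 0 in 20 of 21 tumours, the exception being tumour 640 at 0.11, and 5.32% of probes were below 0 in at least 20 tumours. Hspa1a lay on the other side, above 0 in 18 of 20 tumours and 36 of 40 arrays, and below 0 in tumours 644 and 646. The share of probes above 0 in as many tumours was not counted. Median levels were -2.91 for Fos (7.54-fold from the array median), -1.24 for Jun (2.36-fold), -2.59 for Egr1 (6.02-fold), -1.99 for Ccn1 (3.99-fold) and 2.30 for Hspa1a (4.93-fold). These sides were the same without centring and after quantile normalisation. With centring on the probes measured on every array, Jun was below 0 in 21 of 21 tumours and Hspa1a above 0 in 19 of 20.

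**Figure D1:**
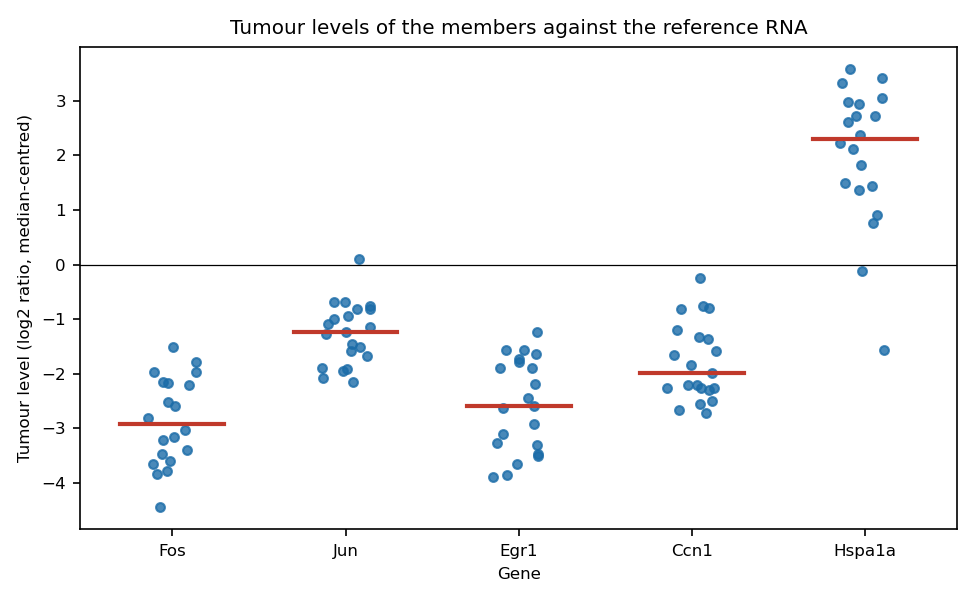
Level of each gene in each tumour as a median-centred log2 ratio (vertical axis, points) with the median over tumours (line). Fos, Egr1 and Ccn1 lie wholly below 0, Jun has 1 tumour above 0, and Hspa1a has 18 of 20 tumours above 0.

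Differences between tumours were tested for every probe in one limma model with terms for the tumour and for the dye orientation of the array, and p-values were adjusted by Benjamini-Hochberg over 9407 probes. The error is that between the hybridisations of a tumour RNA, so p-values do not cover the spread between animals. At an adjusted p below 0.05, 2427 probes (25.8%) differed between tumours, and of the 5 members 1 did, Hspa1a. The members are taken below by role.

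**Figure D2:**
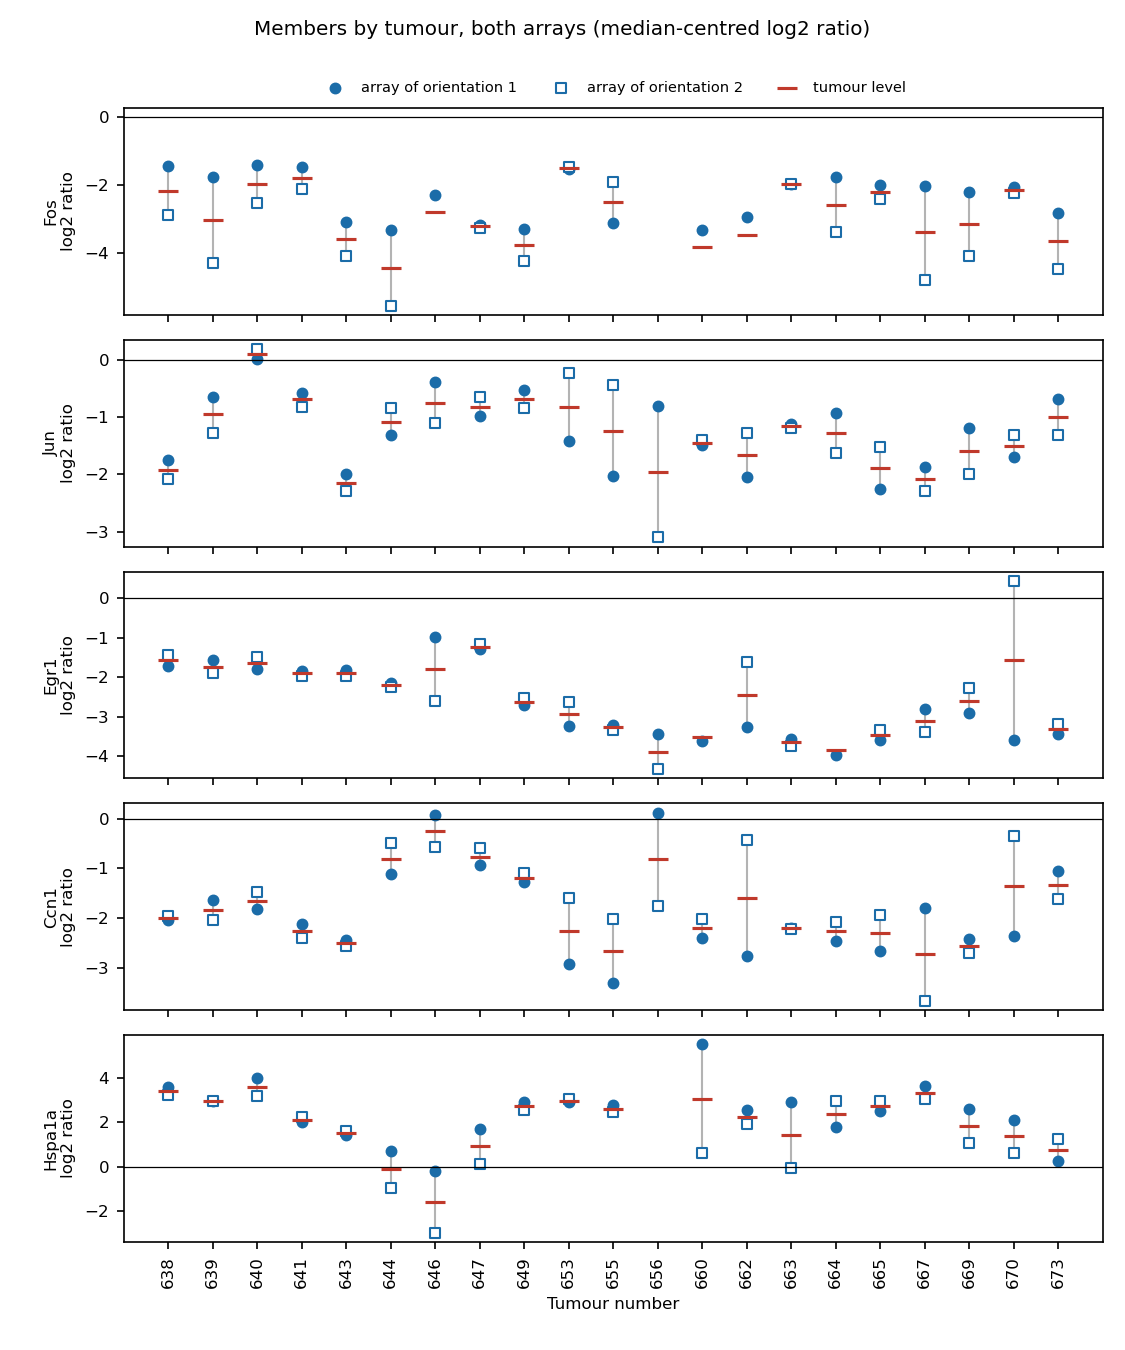
Median-centred log2 ratio of each gene (rows) on both arrays of each tumour (horizontal axis, tumour number), with filled circles for orientation 1, open squares for orientation 2 and a red line for the tumour level. Arrays of a tumour lie far apart for Egr1 in tumour 670 and for Hspa1a in tumour 660, and Hspa1a is lowest in tumours 646 and 644.

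Fos, the AP-1 subunit that needs a partner, ranged over tumours between -4.44 in tumour 644 and -1.50 in tumour 653, with a median of -2.91 and an SD of 0.81. The standard error of a tumour with both arrays was 0.52. The span was 2.94 (7.66-fold). The test over all tumours missed the threshold (limma, adjusted p = 0.0922). Of 190 pairs of tumours 2 differed (1.05%, against 3.19% of pairs over all probes). Tumour 644 was below tumour 653 (adjusted p = 0.0277) and below tumour 641 (difference 2.65, adjusted p = 0.0494). The share of variance between tumours was 0.432, against a median of 0.245 over all probes. Fos also had a dye orientation difference, which 27.2% of probes showed: arrays of orientation 1 were 1.02 ± 0.25 (SE) above those of orientation 2 (adjusted p = 0.00598). Which dye each orientation carries is not given in the labels. Tumours 646, 660 and 662 had Fos on 1 array only, so their levels rest on that orientation estimate.

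Jun, the AP-1 subunit that can also pair with itself, ranged between -2.15 in tumour 643 and 0.11 in tumour 640, with a median of -1.24 and an SD of 0.57 (SE 0.43 for a tumour). Tumour 640 stood above the rest, and the next, tumour 649, was at -0.68. The test over all tumours missed the threshold (limma, adjusted p = 0.191). Of 210 pairs 2 differed (0.952%, against 3.19% of pairs over all probes). Tumour 640 was above tumour 643 by 2.25 (adjusted p = 0.0386) and above tumour 667 by 2.19 (adjusted p = 0.0454). The orientation difference of Jun was 0.08 ± 0.19 (SE, adjusted p = 0.758).

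Egr1 ranged between -3.88 in tumour 656 and -1.23 in tumour 647, with a median of -2.59 and an SD of 0.86 (SE 0.55). The lower end held tumours 656, 664 at -3.85 and 663 at -3.65, and the upper end tumours 647, 638 at -1.57 and 670 at -1.57. The test over all tumours missed the threshold (limma, adjusted p = 0.0996), and 0 of 210 pairs differed, the widest with an adjusted p of 0.0634. Arrays of tumour 670 lay at -3.58 and 0.44, the only Egr1 array above 0. Without the lower array the adjusted p of Egr1 was 0.00106, and without the higher one 0.00433, both past the threshold. Tumours 660 and 664 had 1 usable Egr1 array each.

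Ccn1, the matrix-associated product of the early response, ranged between -2.72 in tumour 667 and -0.25 in tumour 646, with a median of -1.99 and an SD of 0.71 (SE 0.51). After tumour 646 the highest were tumours 647 at -0.76, 644 at -0.80, 656 at -0.82, 649 at -1.19 and 673 at -1.33. The test over all tumours missed the threshold (limma, adjusted p = 0.146), and 0 of 210 pairs differed, the widest with an adjusted p of 0.0609.

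Hspa1a had the widest range of the 5 genes. Its levels lay between -1.57 in tumour 646 and 3.58 in tumour 640, with a median of 2.30 and an SD of 1.29, against a median SD of 0.74 over all probes. Tumours 646 and 644, at -1.57 and -0.11, lay below the other 18, which began at 0.76 in tumour 673 and 0.91 in tumour 647. Hspa1a differed between tumours (limma, adjusted p = 0.0137), with 0.514 of its variance between tumours. Of 190 pairs 14 differed (7.37%): tumour 646 was lower than 12 tumours and tumour 644 lower than 2, tumours 638 and 640. The widest pair, tumour 640 over tumour 646, differed by 5.16 ± 0.97 (SE), or 35.7-fold (adjusted p = 0.00324). Every pair that differed thus involved tumour 646 or 644. The arrays of tumour 646 lay at -0.18 and -2.97, and without the lower one the adjusted p of Hspa1a was 0.0636, so the call rests on that array. The arrays of tumour 646 came from slide runs 1 and 3, which are blocks of arrays by running number. Arrays of tumour 660 lay at 5.50 in run 3 and 0.59 in run 2. The orientation difference of Hspa1a was 0.84 ± 0.31 (SE, adjusted p = 0.0456). Without the dye orientation term the adjusted p between tumours was 0.0551.

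In none of the 5 orders did the test separate neighbouring tumours. The calls depended on the centring. On the deposited scale without centring all 5 genes differed between tumours, with adjusted p of 0.0179 for Fos, 0.00184 for Jun, 0.0278 for Egr1 and 0.0131 for Ccn1, while 43.9% of all probes did. The medians that centring removes ran between -1.425 and 1.242 over arrays.

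Running numbers in the array titles fall into 3 blocks of 9, 13 and 20 arrays, called slide runs here because the labels do not say what they stand for. Of the 21 tumours 17 had both arrays in 1 run. Egr1 averaged -1.78 ± 0.28 (SD, n = 4) in run 1, -3.23 ± 0.57 (SD, n = 5) in run 2 and -2.28 ± 0.74 (SD, n = 8) in run 3. The 5 tumours of run 2 reached at most -2.44 and those of run 1 at least -2.19. Single arrays did overlap, with 1 of tumour 662 at -1.615 in run 2 and 1 of tumour 644 at -2.247 in run 1. The share of all probes whose tumour levels separate these runs was not counted, so the separation cannot be read as particular to Egr1. The Egr1 difference over the 3 runs missed the threshold over all probes (limma on tumour means, unadjusted p = 0.00634, adjusted p = 0.124). Of 9353 probes 10 passed (0.107%), and 15.4% had an unadjusted p below 0.05. That count was unstable: without tumour 656 it was 262, and the adjusted p of Egr1 was then 0.187. It was 251 with ratios of small whole numbers left out, 244 with centring on the probes measured on every array and 878 without centring. Without centring Egr1 passed, with an adjusted p of 0.0142. Fos averaged -2.90 ± 1.13 (SD, n = 4), -1.99 ± 0.51 (SD, n = 3) and -3.09 ± 0.73 (SD, n = 8) in runs 1, 2 and 3 (limma, adjusted p = 0.438). Jun, Hspa1a and Ccn1 had adjusted p of 0.827, 0.794 and 0.895. Among these 17 tumours run 1 held numbers 638 to 644 and run 2 numbers 653 to 663, so run and tumour number cannot be told apart between them. Run 3 held lower and higher numbers. There Egr1 was at -1.9, -1.89, -1.23 and -2.62 in tumours 641, 643, 647 and 649. It was at -3.1, -2.59, -1.57 and -3.31 in tumours 667, 669, 670 and 673. A relation to tumour number was not tested. Whether the runs also differ in tumour line cannot be told apart here, since the labels used do not give the line.

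**Figure D3:**
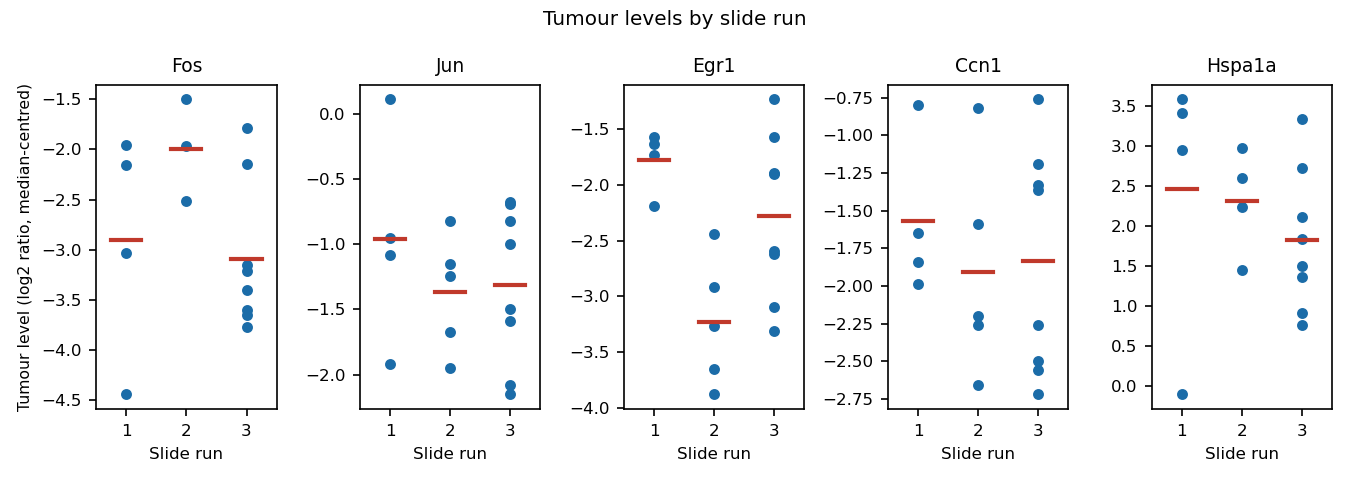
Tumour level (median-centred log2 ratio) of each gene in the 17 tumours with both arrays in 1 slide run (points), with the run mean (line). Egr1 is lower in all 5 tumours of run 2, at or below -2.44, than in the 4 of run 1, at or above -2.19. The share of all probes that separate these runs was not counted, so the separation cannot be read as particular to Egr1.

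Whether the members vary together over tumours was examined for each pair. Of 10 pairs of members 1 correlated over tumours after adjustment over the 10, Hspa1a with Ccn1 (Pearson r = -0.685, n = 20, permutation p = 0.00104, adjusted p = 0.0104). The rank correlation was -0.436 (permutation p = 0.0553, adjusted p = 0.276). Without tumours 644 and 646, the farthest from the Hspa1a median, r was -0.372, so the relation rests on them. Within slide run 3 r was -0.518 over 8 tumours, and runs 1 and 2 held too few. Fos and Jun, the AP-1 partners, had r = 0.178 (n = 17, permutation p = 0.494, adjusted p = 0.637) and rho = 0.172 (permutation p = 0.507, adjusted p = 0.725). Fos and Hspa1a had r = 0.505 (n = 17, permutation p = 0.0383, adjusted p = 0.191), with -0.058 in run 3. Jun and Ccn1 had rho = 0.44 (n = 21, permutation p = 0.0473, adjusted p = 0.276). Fos with Egr1 (r = -0.028, n = 16) and Jun with Egr1 (r = 0.32, n = 19) did not pass either.

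**Figure D4:**
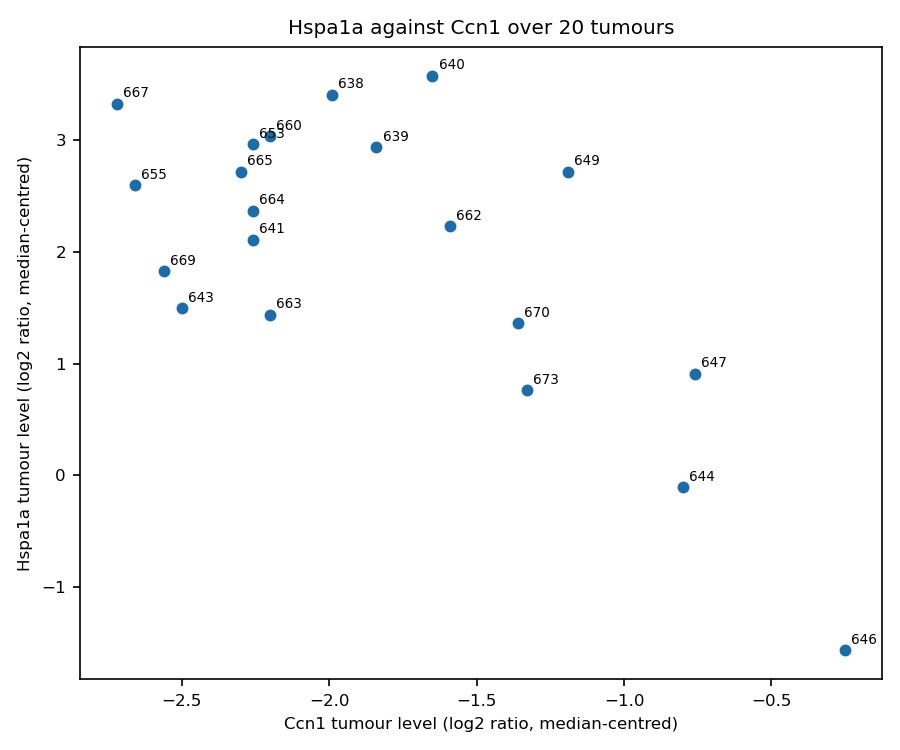
Hspa1a level (vertical axis) against Ccn1 level (horizontal axis), both median-centred log2 ratios, in the 20 tumours with both, labelled by tumour number. Tumours 646 and 644 combine the lowest Hspa1a with high Ccn1, and without them r is -0.372 in place of -0.685.

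The levels of marker lists of other cell types were set beside those of the members. A list level, the mean of standardised tumour levels over the tested genes of a list, was taken for 7 of 10 mammary epithelial genes, 8 of 10 mesenchymal and fibroblast genes and 7 of 11 macrophage genes. The mesenchymal list split the tumours into 5 (tumours 644, 646, 647, 649 and 673) at 1.01 to 1.88 and 16 at -1.14 to 0.15. The macrophage list gave the same 5 at 1.14 to 1.55, against -1.20 to 0.43 in the other 16. The epithelial list put those 5 and tumour 656 at -1.16 to -0.66, and the other 15 at -0.24 to 0.76. These 6 tumours are the 6 with the highest Ccn1, at -0.25 to -1.33, with tumour 670 next at -1.36. For Ccn1, however, 0 of 210 pairs of tumours differed. Tumour 656 had low mesenchymal and macrophage levels, and its epithelial genes went opposite ways. Its Epcam (3.53) was the highest of all tumours, whereas its Krt18 (-2.96) and Krt8 (0.77) were the lowest. Of the 5, tumours 646, 644, 673 and 647 are the 4 with the lowest Hspa1a, while tumour 649, at 2.72, lies above the Hspa1a median. The part of these cell types in Ccn1 and Hspa1a was not tested, and because the list levels form separate groups no correlation over all tumours is given for them.

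Of 28 relations between a member and a list level, taken within such groups where a list split, 0 passed adjustment over the 28 by Pearson or Spearman correlation, and 4 had an unadjusted Pearson p below 0.05. Egr1 and the macrophage list, within the 16 tumours of lower macrophage level, had r = 0.739 (n = 14, permutation p = 0.00342, adjusted p = 0.0958) and rho = 0.613 (permutation p = 0.0219, adjusted p = 0.204). Without the 2 tumours farthest from the median of the list, 641 and 656, r was 0.676. Each slide run held at most 5 of these tumours, too few for a correlation within a run. Run 2 had the lowest mean Egr1, -3.23, and its 5 tumours had macrophage levels of -0.335 or lower. The 3 tumours of run 1 had macrophage levels of -0.154 or higher. Ccn1 and the adipocyte list (3 tested genes) had r = -0.575 (n = 21, permutation p = 0.00699, adjusted p = 0.0979) and rho = -0.536 (permutation p = 0.0135, adjusted p = 0.19), with -0.921 over the 8 tumours of run 3. The adipocyte genes Ucp1, Fabp4 and Adipoq did not differ between tumours (limma, adjusted p = 0.629, 0.238 and 0.139), nor did Ccn1. Fos and the skeletal muscle list had r = -0.576 (n = 16, permutation p = 0.0184, adjusted p = 0.172), and Hspa1a and that list r = -0.52 (n = 18, permutation p = 0.0282, adjusted p = 0.198).

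Relatives of the members in the same pathways were counted in the same fit. Of 9 other AP-1 genes 6 were tested and 2 differed (33.3%, against 25.8% of all probes). Fosl1, a Fos relative without a strong activation domain, ranged between -4.13 in tumour 640 and 0.00 in tumour 649 (limma, adjusted p = 0.0108), and Junb between -2.54 in tumour 667 and 0.27 in tumour 647 (adjusted p = 0.0211). Mafk and Batf had adjusted p of 0.845 and 0.66. Of 28 tested among 39 other early response genes 10 differed (35.7%, against 25.8% of all probes). Of the 28, 23 had a median level below 0, a larger share than the 55.8% of all probes. In every tumour with a value, 7 of the 28 were below 0 and 1 was above 0, against 3.28% and 1.66% of all probes. The 10 that differed were led by Dusp6, a phosphatase that turns off ERK. Dusp6 lay between -4.96 in tumour 664 and 1.77 in tumour 647 (adjusted p = 4.58e-06). The orphan receptor Nr4a1 lay between -3.0 in tumour 649 and 2.35 in tumour 640 (adjusted p = 1e-05). Plk3 and Trib1 followed (adjusted p = 2.01e-05 and 2.69e-05), and Dusp2 (0.972) and Egr4 (0.793) were farthest from the threshold. Upstream of the early genes, among kinases and transcription factors, 3 of 13 tested genes differed (23.1%, a share below the 25.8% of all probes): Elk4, an SRF partner (adjusted p = 0.000834), Creb1 (0.018) and Elk3 (0.0219). Mapk8, the kinase JNK1, had an adjusted p of 0.898 and Map2k1, the kinase MEK1, 0.72.

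Among CCN family genes and YAP targets 6 of 9 tested differed (66.7%, against 25.8% of all probes). Ccn2, a CCN family relative of Ccn1, ranged between -1.36 in tumour 667 and 2.31 in tumour 647 (limma, adjusted p = 0.00151). Ajuba, a LIM adaptor, lay between -3.11 in tumour 667 and 2.18 in tumour 646 (adjusted p = 5.7e-06), the receptor kinase Axl between -3.75 in tumour 667 and 1.39 in tumour 647 (adjusted p = 6.46e-05) and thrombospondin Thbs1 between -3.98 in tumour 667 and 1.22 in tumour 644 (adjusted p = 0.000413). These 4 were lowest in tumour 667, as was Ccn1, but the other 2 that differed were not: Tead1 was lowest in tumour 663 (adjusted p = 0.00562) and Ccn4 in tumour 664 (adjusted p = 0.02). Tumour 667 was also the lowest for genes of other lists, such as Junb, Serpinh1, Hmox1, Ddit4 and Fn1. How often it was lowest over all probes was not counted, so the shared lowest tumour is not particular to this list. Yap1 itself did not pass (adjusted p = 0.473), nor did Amotl2 (0.158).

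Among heat shock genes 9 of 19 tested differed (47.4%, against 25.8% of all probes). Of the 19 medians 10 were below 0, near the share of 55.8% over all probes. The collagen chaperone Serpinh1 had the smallest adjusted p of the list, 1.43e-08, with levels between -6.78 in tumour 667 and 1.76 in tumour 646. Cryab, a small heat shock protein, lay between -2.75 in tumour 663 and 1.85 in tumour 673 (adjusted p = 8.35e-05), and Hspa8, the constitutive relative of Hspa1a, between -3.62 in tumour 663 and 0.88 in tumour 647 (adjusted p = 0.000413). The haem oxygenase Hmox1 lay between -3.27 in tumour 667 and 0.09 in tumour 663 (adjusted p = 0.00161). Of the 9 that differed, 2 were lowest in tumour 644, which had the second lowest Hspa1a: Hsph1, an Hsp110 chaperone, at -1.19 (adjusted p = 0.00673) and the mitochondrial Hspa9 at -1.06 (adjusted p = 0.0446). None of the 9 was lowest in tumour 646. The HSF1-driven cochaperone Bag3 did not pass (0.746), nor did Hspe1 (0.651). Of 13 tested genes of the integrated and endoplasmic reticulum stress responses 7 differed (53.8%, against 25.8% of all probes), among them Ddit4 (adjusted p = 2.59e-06), Asns (6.71e-05), Xbp1 (0.000209) and Pdia4 (0.00307), while Atf4 (0.426) and Sdf2l1 (0.206) did not. The median SD of tumour levels was 0.99 for the AP-1 list, 0.86 for the other early genes, 0.68 for heat shock genes and 1.01 for the CCN and YAP list, against 0.74 over all probes.

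**Figure D5:**
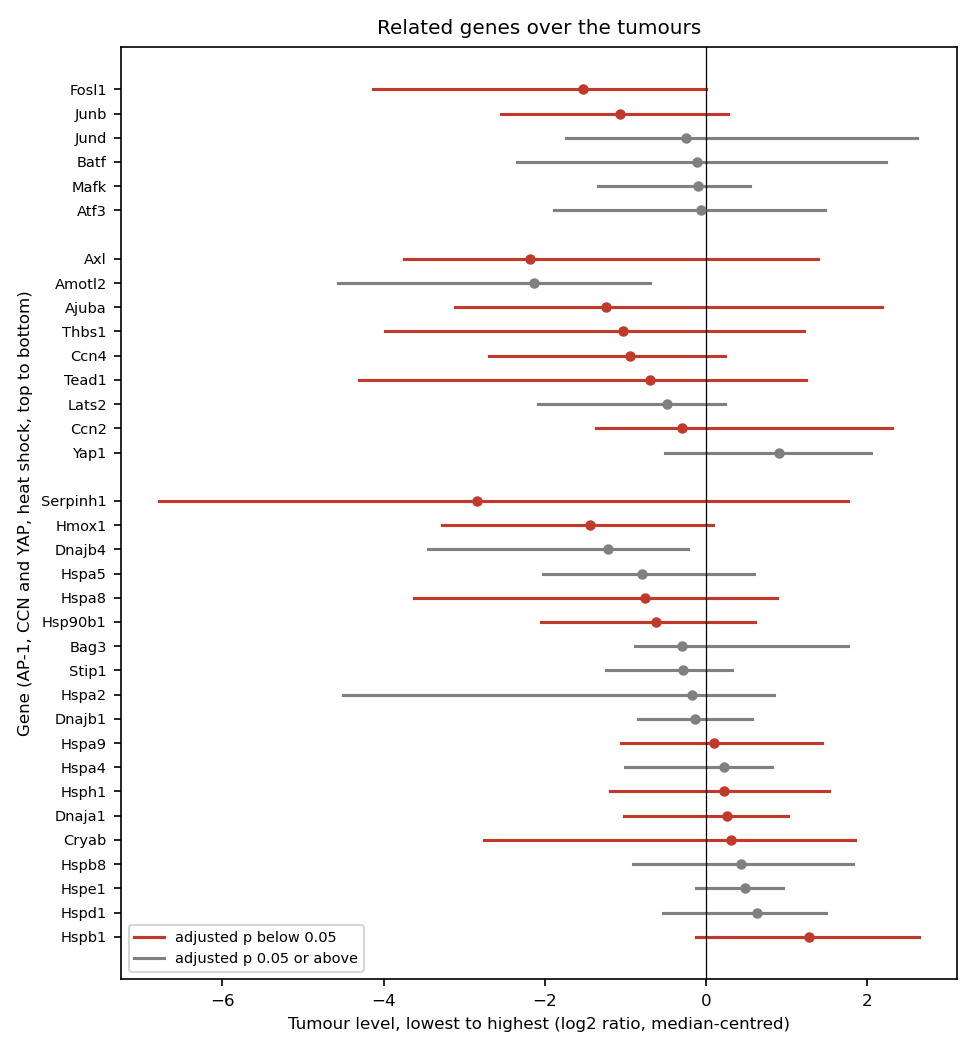
Lowest, median and highest tumour level (log2 ratio, median-centred) of the tested AP-1, CCN and YAP, and heat shock genes, red where the gene differed between tumours (adjusted p below 0.05). In red are 2 of 6 AP-1 genes, 6 of 9 CCN and YAP genes and 9 of 19 heat shock genes.

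As a description with no test, the genes whose tumour levels were most like each member over at least 18 shared tumours were found by Pearson correlation. They share arrays and centring with it, and each correlation pools the groups of tumours that the marker lists set apart. For Hspa1a the highest were Bysl (0.895), Tbrg4 (0.873), Ddx52 (0.856), Hsd3b3 (0.854) and 4930533K18Rik (0.85), and the lowest the collagen gene Col1a2 (-0.791), Fstl1 (-0.788) and Copg1 (-0.788). Col1a2 belongs to the mesenchymal list. Within the 16 tumours of lower mesenchymal level, that list and Hspa1a had r = -0.314 (n = 15, permutation p = 0.252, adjusted p = 0.783). For Ccn1 the highest were Tsc22d3 (0.897), Smad5 (0.88), Cnep1r1 (0.875), Sdcbp (0.874) and the matrix gene Thbs2 (0.871), and the lowest Acot1 (-0.843), Tbrg4 (-0.825) and the epithelial transcription factor Elf3 (-0.824). Tbrg4 thus stood near the top for Hspa1a and near the bottom for Ccn1. For Fos the highest were Map3k1 (0.745), Fcf1 (0.737), Psmc1 (0.733), Pabpn1 (0.731) and Cox19 (0.721), and the lowest P3h3 (-0.71), B3galnt1 (-0.688) and Relb (-0.684). Jun was most like 2610307P16Rik (0.826), Pde10a (0.824), Ywhab (0.822), Cfdp1 (0.817) and Kif20a (0.812), and least like 1810035K13Rik (-0.662), Pllp (-0.662) and 4933412O06Rik (-0.651). Egr1 was most like Csnk1g3 (0.824), Hdac5 (0.815), Carhsp1 (0.782), Pofut1 (0.778) and Ube2g2 (0.778), and least like Jmy (-0.775), Dancr (-0.772) and 9030616G12Rik (-0.767). No member was among the genes most like another member. Most of the genes named here did not themselves differ between tumours, such as Bysl (limma, adjusted p = 0.333), Ddx52 (0.866), Pabpn1 (0.82) and Cfdp1 (0.93). Others did, such as Col1a2 (1.7e-07), Acot1 (0.00016) and Thbs2 (0.000346). Of the members only Hspa1a did. The part of shared hybridisation error in these correlations was not tested.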

How the data were processed

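The authors deposited dye ratios, taken as log2 because of their range and spacing. Tumour RNA was extracted with TRIzol and labelled with Cy3 or Cy5, per the labels' protocols. The sources used here give no background correction, normalization or dye of an array. The repeated top value 16.61 (15512 values) was treated as missing, and 232 Gapdh spots were averaged. The arrays of a tumour were turned against each other by the first eigenvector of the correlations between tumours of their differences, with Myc setting the sign. Each array was centred on its median. Probes with both arrays in at least 15 tumours were tested with limma 3.58.1 (R 4.3.3) for tumour and dye orientation, with a Benjamini-Hochberg threshold of 0.05 over 9407 probes, and 210 pairs of tumours were adjusted over all probes and pairs. Slide runs were tested on tumour means. Correlations used 100000 permutations, two-sided, and list levels were split with mclust 6.1.1. By the platform annotation 16874 probes had 1 symbol, 134 several and 5792 none. The members and the gene lists were chosen with earlier results of these data known. For each list, the 4 genes with the smallest adjusted p below the threshold and the 2 with the largest above it are named, and for each member the 5 most and 3 least correlated genes.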

Additional observations from a re-analysis of the deposited data

How the results depend on the processing

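Ratios of small whole numbers made up 19.861% of values, which limits dim probes, and the number of arrays per tumour limits each level. The overall sign was not settled. No paired analysis was possible between tumours, because the labels carry no replicate numbers for a tumour's arrays and each tumour is its own group. Within a tumour, the dye orientation term of the model did compare its dye-swapped arrays. The fixed alternatives changed 1 choice at a time. Of the results past the threshold, direction was compared only for the correlation of Hspa1a with Ccn1, which stayed negative. For the counts and the other tests no direction was compared. Of the member correlations that did not pass, 4 changed sign under at least 1 alternative: Fos with Jun (-0.12, centred on probes measured on every array), Jun with Hspa1a (0.134, no centring), Egr1 with Hspa1a (0.151, no centring) and Fos with Egr1 (up to 0.507, slide run means subtracted). Apart from arrays left out singly, in 125 cases the result kept its side of the threshold or, for a count, stayed within 1.5 times. In 18 cases a count moved further, in 11 a result came to pass and in 5 it ceased to.

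Without centring, 4132 probes differed between tumours, 6121 between orientations and 878 between slide runs, with adjusted p of 0.0179 for Fos, 0.00184 for Jun, 0.0278 for Egr1 and 0.0131 for Ccn1, 0.000609 for the orientation of Jun and 0.0142 for the slide run of Egr1. Then 0 pairs of members correlated (Hspa1a with Ccn1 r = -0.397) and 1 member with a list, Egr1 with the macrophage list (r = 0.847). Centred on probes measured on every array, the counts were 3798, 4440 and 244, the adjusted p 0.0235 for Fos, 0.00946 for Jun, 0.00826 for Ccn1 and 0.0476 for the orientation of Jun, and 2 pairs correlated, Fos with Ccn1 (r = -0.666) being added. With both arrays required in all 21 tumours, 1321 and 1213 probes passed for tumours and orientation, from fewer tested probes, and Fos, Egr1 and Hspa1a were not tested. With ratios of small whole numbers left out, the adjusted p was 0.0489 for Fos and 0.0505 for Hspa1a, 0.0772 for the orientation of Hspa1a, 251 probes differed between slide runs and 0 pairs correlated. With the top value kept, 2 probes differed between slide runs and the orientation of Hspa1a had 0.0853. Without tumour 656, 262 probes differed between slide runs. Quantile normalisation gave 0.0928 for the orientation of Fos, and leaving out the orientation term 0.0551 for Hspa1a between tumours. Spearman correlation gave 0 pairs, and so did subtracting slide run means, where 1 list relation passed, Ccn1 with the adipocyte list (r = -0.783). With slide run as a covariate the orientation of Fos could not be fitted. The causes of these changes were not tested.

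Leaving out each of the 42 arrays in turn gave 1980 to 2960 probes, and adjusted p of 0.034 to 0.188 for Fos, 0.0294 to 0.371 for Jun, 0.00106 to 0.157 for Egr1, 0.000699 to 0.0636 for Hspa1a and 0.0501 to 0.268 for Ccn1. Fos passed without either array of tumour 655 (0.034 and 0.0427), Jun without replicate 1 of tumour 656, Egr1 without either array of tumour 670, and Hspa1a did not pass without replicate 2 of tumour 646.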
